A study of Mus musculus with 24 samples.

Results

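The 45 genes described here encode the DNA replication machinery and the enzymes that work with it in S phase: origin licensing factors, the MCM2-7 helicase and its activators, the PCNA clamp and its loader, the replicative polymerases, the single-strand binding and Okazaki fragment joining proteins, the enzymes of deoxynucleotide supply, replication-coupled chromatin factors and the transcription factors E2F1 and E2F2. They were chosen by name, though with earlier results of these data known. All 45 were found among 45318 Ensembl gene rows of the deposited count table. The libraries came from mouse C57Bl/6 Lys-GFP-ER-HoxA9 cells, myeloid progenitors held in culture by a HoxA9 fusion whose activity depends on estradiol, grown with stem cell factor and 0.5 uM beta-estradiol. The withdrawal group was cultured without estradiol and sampled in 2 libraries at each of 4, 8, 12, 24, 36, 48, 72, 96 and 120 h, with 2 libraries at 0 h as the start of the course. The R07 group had 1 library at each of 12, 36, 72 and 120 h. R07 is known here only by its code, and whether estradiol was present with it is not stated. All 24 libraries carry the Lys-GFP and ER-HoxA9 constructs, and nothing states that libraries of a time came from separate cultures, so p-values measure only the spread between these libraries.

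DNA replication is prepared in G1, when the origin recognition complex, CDC6 and CDT1 load the MCM2-7 helicase onto origins, and begins in S phase, when MCM10, CDC45 and the GINS complex turn loaded MCM2-7 into the working helicase. Polymerase alpha-primase then lays down primers, replication factor C loads the PCNA clamp, and polymerases delta and epsilon copy the strands. Many of these genes are transcribed under E2F control, and myeloid cells leave the cell cycle as they become neutrophils.

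The E2F site in their promoters is the sequence feature through which many of these genes are known to be controlled, so promoter windows from 250 bases before to 50 bases after the annotated start were read from RefSeq for genome build GRCm38.p6 (mm10). A window was matched for 37 of the 45 members. The letters TTTCCCGC, TTTCGCGC, TTTGCCGC or TTTGGCGC, searched on both strands, were found in the windows of 16 of these 37 genes (43.2%), against 704 of 27025 genes with a RefSeq window (2.60%). CCAAT, the letters bound by NF-Y, was found in 24 of the 37 (64.9%) against 41.1% of all genes, and the CHR letters TTTGAA or TTCGAA in 8 of the 37 (21.6%) against 21.7%. The 16 genes with an E2F site were Orc1, Cdc6, Cdt1, Mcm3, Mcm5, Mcm6, Mcm7, Gins3, Rfc3, Pola1, Pold1, Pole2, Lig1, Dnmt1, Uhrf1 and E2f2. Some genes had more than 1 window, and for Dnmt1 and Uhrf1 the sites lay only in that of a further start inside the gene. Mcm4, Gins1, Gins2, Gins4, Gmnn, Rfc2, Prim2 and Pole had no matched entry. Shown here are 160 bases of each of 5 windows, 5′ to 3′ on the gene's strand, with E2F sites in capitals; they were chosen after the sites were seen, to set promoters with 1 site (Orc1, Pola1), with several (Mcm5, Mcm6) and with none (Rfc1) beside each other. In Mcm5 the capitals hold 2 sites that overlap on opposite strands, and the first capital run of Mcm6 likewise holds 2 of its 3 sites. The stretches lie at chr4:108579294-108579453 (Orc1, plus strand), chrX:93632156-93632315 (Pola1, minus strand), chr8:75109349-75109508 (Mcm5, plus strand), chr1:128359706-128359865 (Mcm6, minus strand) and chr5:65335640-65335799 (Rfc1, minus strand).
Orc1: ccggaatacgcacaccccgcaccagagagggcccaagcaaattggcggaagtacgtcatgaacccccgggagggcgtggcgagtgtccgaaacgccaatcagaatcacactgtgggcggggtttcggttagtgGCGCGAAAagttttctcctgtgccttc
Pola1: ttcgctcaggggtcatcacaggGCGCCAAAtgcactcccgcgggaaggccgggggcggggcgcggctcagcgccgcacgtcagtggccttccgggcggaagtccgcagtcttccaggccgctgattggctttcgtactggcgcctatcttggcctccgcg
Mcm5: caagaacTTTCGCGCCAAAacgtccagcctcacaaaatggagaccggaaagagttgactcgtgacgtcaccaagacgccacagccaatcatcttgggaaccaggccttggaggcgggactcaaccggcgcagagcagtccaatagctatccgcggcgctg
Mcm6: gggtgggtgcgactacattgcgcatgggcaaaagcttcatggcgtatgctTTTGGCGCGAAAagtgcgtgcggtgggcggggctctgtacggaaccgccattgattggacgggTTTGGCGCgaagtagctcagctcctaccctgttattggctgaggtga
Rfc1: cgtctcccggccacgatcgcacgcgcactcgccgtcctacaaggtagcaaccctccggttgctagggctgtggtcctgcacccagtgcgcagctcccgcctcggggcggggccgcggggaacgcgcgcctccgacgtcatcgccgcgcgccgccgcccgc
A match describes letters in a window and is not evidence of binding. Only those exact letters were searched, so a window without a match can still hold a variant of the site. At 120 h of withdrawal the median log2 change from 0 h was -3.78 over the 16 members with a site and -3.21 over the 21 members with none in the window, and both ranges were wide: -5.48 (Orc1) to 2.52 (E2f2) with a site and -4.47 (Prim1) to -0.47 (E2f1) without.

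Between 36661334 and 49601719 counts were assigned to genes in each library, and between 16995 and 17887 genes had a count. Levels below are in CPM, a gene's count scaled to a common library size with TMM factors; the SD of the 2 libraries of a time was 5.06% of their mean at the median over the 45 members and 10 times, and reached 43.7% for Prim1 at 120 h. Lyz2 never passed 0.646 CPM. Summed over 6 myeloid progenitor markers (Kit, Cd34, Mpo, Ms4a3, Myb, Lyz2), the level was 8392 to 8538 CPM at 0 h and 12665 to 13335 CPM at 24 h. It was 12599 to 13491 CPM at 36 h, 4697 to 5665 CPM at 72 h and 197 to 259 CPM at 120 h. Mpo, which reached 11261 CPM, weighs most in this sum. The 6 markers did not rise together: their median log2 change from 0 h was -0.08 at 24 h (range -1.69 to 2.77). At 36 h that median was -0.13 (range -2.85 to 3.59). The sum of 6 mature neutrophil markers was 3.90 to 5.48 CPM at 0 h, 2696 to 4033 CPM at 72 h, 23147 to 29105 CPM at 96 h and 15824 to 20683 CPM at 120 h. The B cell genes Ebf1 and Cd79b reached 177 and 82.9 CPM, while Pax5 and Ms4a1 stayed at or under 1.61 CPM; Cd3e, Cd8a and Col3a1 were at 0 in every library. Exons of 15 members overlap exons of another gene, mostly on the opposite strand (Orc1, Orc2, Orc6, Mcm7, Cdc45, Gins2, Rfc2, Rfc4, Rfc5, Pole, Rpa1, Fen1, Lig1, Tk1 and Chaf1a), and Pcna and Tyms have pseudogene copies, so their values are uncertain to the extent that counting split or shared those reads.

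Through the first 48 h of withdrawal most replication genes stayed close to their 0 h levels, and between 72 and 120 h all but E2f2 ended far lower or, for Gins4, Rfc1, Rfc2 and E2f1, moderately lower. All 45 members passed the low-count filter and all 45 changed at some time in the withdrawal course (edgeR quasi-likelihood F test over the 9 differences from 0 h, Benjamini-Hochberg adjusted p under 0.05, as for every call here), as did 91.1% of the 14615 genes tested. At 120 h against 0 h, 44 members fell and 1, E2f2, rose, where 40.3% of all genes tested fell and 39.6% rose. The median log2 change (given below, gene by gene, with its standard error) was -3.33 over the members and -0.06 over all genes, and the median member kept 9.84% of its 0 h level. In bulk libraries such as these, fewer cells in S phase and less of a transcript in each cell cannot be told apart. The same times brought the change in neutrophil and progenitor markers given above, and 15 genes of G2 and mitosis, chosen for comparison, summed to 280 to 392 CPM at 120 h against 3526 to 3621 CPM at 0 h; what part cell type and cycling fraction had in the fall of the replication genes was not tested.

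The early counts were small, and the members' share called higher was below that of all genes at each time up to 72 h. At 4 h 1 member was higher and 4 lower than at 0 h (7.22% and 4.53% of all genes), and at 8 h 1 was higher and 6 lower (12.9% and 8.99%). No member was called at 12 h (9.2% and 6.81% of all genes) by edgeR, where an unadjusted p under 0.05 was reached by 4 higher and 4 lower members and DESeq2 called 1 higher. At 24 h 2 members rose and 4 fell (13.5% and 14.4%), and at 36 h 7 rose and 11 fell (20.6% and 20.3%). At 48 h 10 rose and 12 fell (25.8% and 26.8%). Save the falls at 24 h, those counts at 24, 36 and 48 h were smaller whichever library of the compared times was left out. The number of falls at 24 h did not change without 1 of the 0 h libraries (column letter B). Each such fit also left that time with 1 library. The 4 h falls (Orc1, Pola1, Rrm2, Tk1) were between none and 4 in number in the same exercise, and the 8 h falls (Orc1, Orc2, Gmnn, Mcm10, Gins1, Rrm2) between 1 and 4. At 72 h 8 members were higher than at 0 h, against 34.9% of all genes: Gmnn, Cdc45, Gins4, Rfc1, Prim2, Tk1, E2f1 and E2f2. The 22 lower members compared with 34.7% of all genes, and the members' median log2 change at 72 h was -0.23. The count of higher members at 72 h was 4 to 6 without a library.

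Step by step, at 24 h against 12 h 2 members rose and 1 fell (8.01% and 11.5% of all genes), at 48 h against 24 h 6 rose and 3 fell (19.3% and 17.2%), and at 72 h against 48 h 1 rose and 11 fell (22.2% and 21.8%); without 1 library these were 0 and 0 to 1, 1 to 4 and 1 to 3, and 1 and 5 to 9. The fall came in both later steps. At 96 h against 72 h 43 members fell and none rose (26.5% and 27.2% of all genes), with a median log2 change of -1.06. E2f1 and E2f2 were the 2 members not called in that step by edgeR; 1 member was higher at an unadjusted p under 0.05, and DESeq2 called 1 higher. At 120 h against 96 h 44 members fell and none rose (21.4% and 21.8%), with a median of -1.87; no member was higher at an unadjusted p under 0.05 or by DESeq2. Orc2 was the exception, at -0.26 ± 0.12 on the log2 scale (adjusted p = 0.0966). The later step was the larger one for 39 members; for Orc2, Gins4, Pcna, Rfc2, Rfc3 and Rpa1 it was not. By means of 2 libraries, 19 members were highest at 0 h, 2 at 4 h, 2 at 8 h, 6 at 12 h, 1 at 24 h, 2 at 36 h, 9 at 48 h, 3 at 72 h (Gmnn, Cdc45 and Tk1) and 1 at 96 h (E2f2). Orc1 and Orc2 went under 50% of their 0 h level for good at 72 h, 30 members did so at 96 h and 8 at 120 h. Gins4, Rfc1, Rfc2, E2f1 and E2f2 never did.

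**Figure D1:**
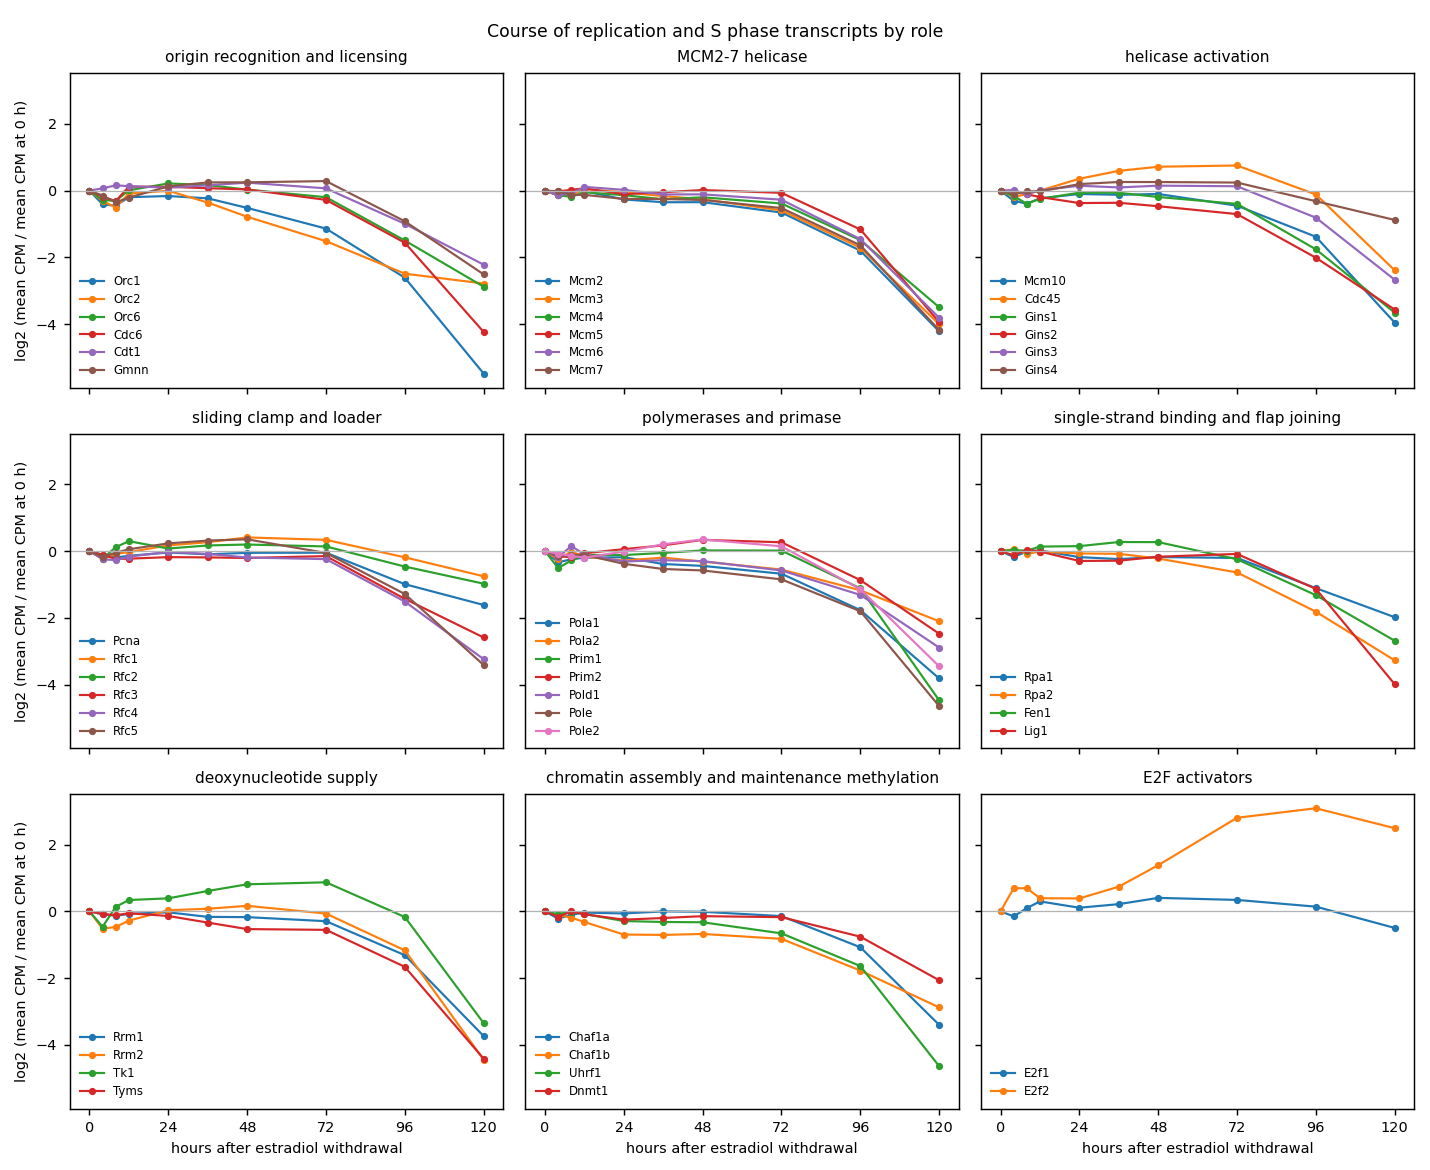
Mean level of each member as log2 of its ratio to the 0 h mean, by hours of estradiol withdrawal and by role, each mean from 2 libraries. Most lines stay near 0 up to 72 h and all but that of E2f2 are below 0 at 120 h, where the fitted log2 changes run from -0.47 (E2f1) to -5.48 (Orc1).

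All 6 origin recognition and licensing genes fell by 120 h, with a median log2 change of -2.80 from 0 h. Orc1, the largest subunit of the origin recognition complex, had 29.8 and 27.9 CPM at 0 h, 25.5 and 26.1 at 24 h, 12.3 and 13.9 at 72 h, and by 120 h 0.458 and 0.839. Its 120 h libraries were far below every other withdrawal library, and its level had already parted from 0 h at 72 h. Orc1 averaged 21.7, 21.1, 25.2, 24.6, 20.2 and 4.73 CPM at 4, 8, 12, 36, 48 and 96 h. For Orc1 the log2 change was -1.15 ± 0.13 (adjusted p = 8.24e-08) at 72 h and -5.48 ± 0.19 (adjusted p = 4.6e-16) at 120 h, the lowest of all 45 members. Between 96 and 120 h alone Orc1 fell by 2.87 on the log2 scale.

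Orc2, a core subunit of the same complex, had 162 and 183 CPM at 0 h, 176 and 167 at 24 h, 53.7 and 67.2 at 72 h, and by 120 h 24.0 and 26.2. All libraries of Orc2 at 72 h were below all those at 0 h and 24 h, and the 120 h pair was lower again. Orc2 averaged 139, 121, 163, 135, 100.4 and 30.8 CPM at 4, 8, 12, 36, 48 and 96 h. Against 0 h its log2 change was -0.79 ± 0.11 (adjusted p = 8.08e-06) at 48 h, -1.53 ± 0.12 (adjusted p = 3.66e-10) at 72 h and -2.75 ± 0.12 (adjusted p = 3.11e-14) at 120 h. Cdt1, which brings MCM2-7 to the origin, behaved otherwise: it had 80.4 and 72.6 CPM at 0 h, 77.6 and 85.3 at 24 h, 81.1 and 79.5 at 72 h, and by 120 h 14.7 and 18.3. The 72 h libraries of Cdt1 lay within or near the range at 0 h and only the later ones stood apart. Cdt1 averaged 80.4, 85.4, 84.0, 85.5, 90.4 and 38.5 CPM at 4, 8, 12, 36, 48 and 96 h. For Cdt1 the log2 change was 0.05 ± 0.13 (adjusted p = 0.753) at 72 h and -2.19 ± 0.15 (adjusted p = 1.71e-11) at 120 h.

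Cdc6, which loads the helicase together with CDT1, had a mean of 4.22 ± 0.906 CPM at 120 h against 79.2 ± 3.15 CPM at 0 h (SD, n = 2 each), a log2 change of -4.21 ± 0.14 (adjusted p = 3.88e-16). Gmnn, the inhibitor of CDT1, was highest at 72 h and averaged 12.8 ± 0.673 CPM at 120 h against 72.9 ± 8.40 CPM at 0 h, with a log2 change of -2.48 ± 0.12. Orc6, the smallest subunit of the origin recognition complex, changed by -2.85 ± 0.13. Both libraries at 120 h were below both at 0 h for each of these genes.

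The 6 subunits of the MCM2-7 helicase moved closely together, with a median log2 change of -3.94 at 120 h and all 6 lower. Mcm7 had 736 and 685 CPM at 0 h, 587 and 610.3 at 24 h, 486 and 505 at 72 h, and by 120 h 35.8 and 42.9. At each of these times both libraries were below both of the time before, and the 120 h libraries were far below the rest. Mcm7 averaged 701, 652, 652, 598, 586 and 229 CPM at 4, 8, 12, 36, 48 and 96 h. For Mcm7 the log2 change was -0.54 ± 0.12 (adjusted p = 4.06e-04) at 72 h and -4.15 ± 0.13 (adjusted p = 2.13e-16) at 120 h.

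Mcm2 had 409.8 and 368 CPM at 0 h, 315 and 333 at 24 h, 239 and 255 at 72 h, and by 120 h 18.7 and 23.2. It was already lower in both libraries at 24 h than in both at 0 h, and no library at 72 h or later overlapped the earlier ones. Mcm2 averaged 354, 379, 385, 306, 306 and 112 CPM at 4, 8, 12, 36, 48 and 96 h. For Mcm2 the log2 change was -0.67 ± 0.12 (adjusted p = 7.33e-05) at 72 h and -4.19 ± 0.14 (adjusted p = 4.9e-16) at 120 h, the largest fall of the 6 subunits.

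Mcm4 had 397 and 416 CPM at 0 h, 380.0 and 361 at 24 h, 306 and 318 at 72 h, and by 120 h 34.4 and 37.9. Mcm4 averaged 370.4, 357, 393, 340.1, 354 and 146 CPM at 4, 8, 12, 36, 48 and 96 h. The libraries of Mcm4 at 0 h and 24 h did not overlap but lay close, and the 120 h pair stood far below. For Mcm4 the log2 change was -3.46 ± 0.11 (adjusted p = 1.63e-16) at 120 h, the smallest fall of the 6, and -1.09 ± 0.10 (adjusted p = 3.08e-08) between 72 and 96 h. The remaining subunits lay between these: the log2 change at 120 h was -3.97 ± 0.13 for Mcm3, -3.91 ± 0.14 for Mcm5 and -3.78 ± 0.12 for Mcm6.

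Per kilobase of exon, the transcript levels of the 6 subunits kept much of their proportion while they fell. At 120 h the lowest was Mcm2 at 3.01 CPM per kilobase and the highest Mcm6 at 10.4, a ratio of 3.46; at 0 h the lowest was again Mcm2 at 55.9 CPM per kilobase and the highest Mcm7 at 160.5, a ratio of 2.87. By this measure Mcm2 was the lowest subunit at every withdrawal time and in every R07 library. The divisor was the union of annotated exons, 6956 bases for Mcm2 against 3589 (Mcm4) to 4666 (Mcm6) for the others. The order of the genes depends on it. The levels of GINS and of replication factor C spread apart: the ratio of the highest to the lowest subunit per kilobase was 16.8 at 120 h against 4.85 at 0 h in GINS (Gins4 over Gins3 both times), and 11.4 at 120 h (Rfc1 over Rfc5) against 2.91 at 0 h (Rfc4 over Rfc3) in replication factor C. These ratios are descriptions, with no test. The size of each depends on the exon lengths used, while its change over time for the same pair of genes does not.

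**Figure D2:**
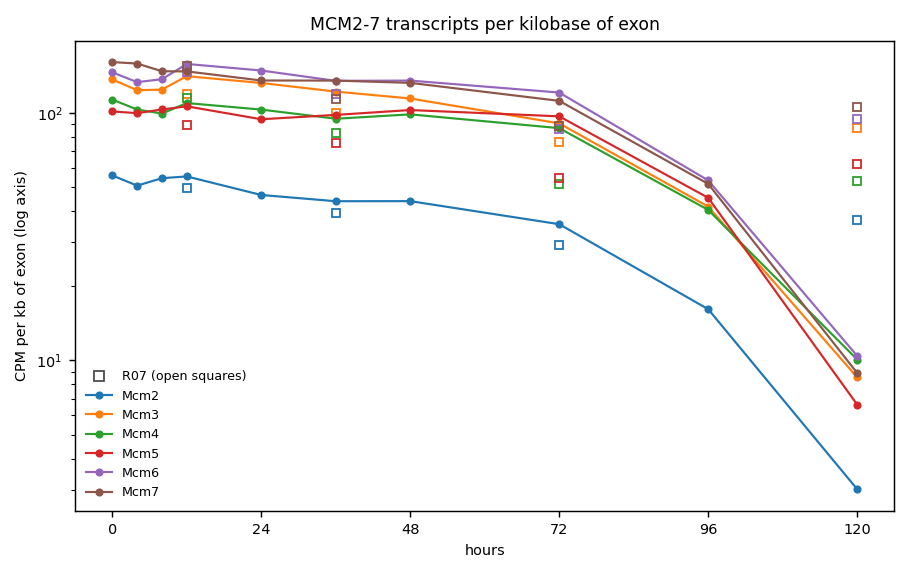
Level of each MCM2-7 subunit in CPM per kilobase of exon, on a log axis, by hours: dots and lines are withdrawal means of 2 libraries and open squares single R07 libraries. The lines run side by side down to between 3.01 (Mcm2) and 10.4 (Mcm6) at 120 h, where every R07 square is far above its line.

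Genes that activate the helicase all fell by 120 h (6 of 6, median log2 change -3.09), but over a wide range. Mcm10, which helps the loaded helicase to start, had 116 and 107 CPM at 0 h, 102 and 106 at 24 h, 78.4 and 84.9 at 72 h, and by 120 h 5.85 and 8.59. Its 72 h libraries lay below those at 0 h and 24 h, and its 120 h libraries far below. Mcm10 averaged 90.4, 85.1, 95.1, 102, 104 and 42.9 CPM at 4, 8, 12, 36, 48 and 96 h. For Mcm10 the log2 change was -0.47 ± 0.12 (adjusted p = 0.00186) at 72 h and -3.93 ± 0.14 (adjusted p = 1.2e-15) at 120 h.

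Gins4, a subunit of the GINS complex, had 44.7 and 47.0 CPM at 0 h, 50.5 and 54.6 at 24 h, 51.6 and 57.0 at 72 h, and by 120 h 23.3 and 26.6. Its libraries at 24 h and 72 h were above those at 0 h, and its fall at 120 h left no overlap with the other times yet was shallow beside that of its partners. Gins4 averaged 42.8, 45.2, 45.1, 54.9, 54.9 and 36.9 CPM at 4, 8, 12, 36, 48 and 96 h. For Gins4 the log2 change was 0.22 ± 0.09 (adjusted p = 0.0419) at 72 h and -0.85 ± 0.10 (adjusted p = 8.95e-08) at 120 h; at 72 h its adjusted p was 0.180 and 0.0728 without 1 or the other 0 h library (A, B) and 0.264 without 1 of the 72 h libraries (B). The other GINS subunits changed more at 120 h, by -3.64 ± 0.15 (Gins1), -3.54 ± 0.16 (Gins2) and -2.63 ± 0.13 (Gins3) on the log2 scale. Cdc45, the partner of GINS in the active helicase, was highest at 72 h, at 125 ± 2.93 CPM against 73.8 ± 0.213 CPM at 0 h (SD, n = 2 each), a log2 change of 0.73 ± 0.11 (adjusted p = 4.8e-06). By 120 h Cdc45 averaged 14.2 ± 1.51 CPM and its log2 change was -2.36 ± 0.12.

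The sliding clamp and its loader fell in 6 of 6 genes at 120 h, with the shallowest median of the roles with more than 2 members, -2.07. Pcna, the clamp that tethers polymerases to DNA, had 432 and 492 CPM at 0 h, 437 and 459 at 24 h, 422 and 471 at 72 h, and by 120 h 133 and 168. Its libraries at 24 h and 72 h overlapped with those at 0 h, and those at 120 h did not. Pcna averaged 428, 404, 418, 432, 445 and 232 CPM at 4, 8, 12, 36, 48 and 96 h. For Pcna the log2 change was -0.07 ± 0.10 (adjusted p = 0.564) at 72 h and -1.59 ± 0.11 (adjusted p = 1.87e-11) at 120 h.

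Rfc1, the large subunit of the loader, had 226 and 225 CPM at 0 h, 253 and 254 at 24 h, 284 and 286 at 72 h, and by 120 h 137 and 130.04. It was highest at 48 h, and both libraries at 72 h were above both at 0 h. Rfc1 averaged 191, 213, 220.3, 271, 299 and 198 CPM at 4, 8, 12, 36, 48 and 96 h. For Rfc1 the log2 change was 0.32 ± 0.08 (adjusted p = 0.00183) at 72 h and -0.73 ± 0.08 (adjusted p = 7.47e-08) at 120 h, the smallest fall in this role.

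Rfc5, a small subunit of the loader, fell furthest in this role. It had 97.3 and 96.2 CPM at 0 h, 111 and 116 at 24 h, 90.9 and 95.0 at 72 h, and by 120 h 8.43 and 9.76. The libraries at 24 h were above those at 0 h, those at 72 h were slightly below, and those at 120 h were apart from all. Rfc5 averaged 85.2, 93.6, 100.3, 120.2, 123 and 39.7 CPM at 4, 8, 12, 36, 48 and 96 h. For Rfc5 the log2 change was 0.34 ± 0.10 (adjusted p = 0.00701) at 48 h and -3.39 ± 0.12 (adjusted p = 4.64e-16) at 120 h. Among the other small subunits the log2 change at 120 h was -0.95 ± 0.10 (Rfc2), -2.56 ± 0.11 (Rfc3) and -3.21 ± 0.14 (Rfc4).

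The 7 polymerase and primase genes fell with a median log2 change of -3.44 at 120 h. Pole, the catalytic subunit of polymerase epsilon, which copies the leading strand, had 228 and 199 CPM at 0 h, 171 and 156 at 24 h, 119.5 and 117 at 72 h, and by 120 h 7.84 and 9.22. Pole went down at each of these times with no overlap between them. Pole averaged 191, 197, 197, 147, 142 and 61.1 CPM at 4, 8, 12, 36, 48 and 96 h. For Pole the log2 change was -0.39 ± 0.11 (adjusted p = 0.00764) at 24 h, -0.87 ± 0.11 (adjusted p = 4.16e-07) at 72 h and -4.62 ± 0.13 (adjusted p = 2.46e-17) at 120 h; at 24 h its adjusted p was 0.133 without 1 of the 0 h libraries (A) and 0.131 without 1 of the 24 h libraries (B). Pola2, the accessory subunit of polymerase alpha, had the smallest fall of the role, with 122 and 108 CPM at 0 h, 89.96 and 98.5 at 24 h, 80.2 and 76.2 at 72 h, and by 120 h 24.3 and 29.2. The 24 h libraries of Pola2 lay below those at 0 h, and the 120 h libraries were the lowest. Pola2 averaged 97.0, 113, 102, 100.2, 92.3 and 50.8 CPM at 4, 8, 12, 36, 48 and 96 h. For Pola2 the log2 change was -0.57 ± 0.12 (adjusted p = 3.23e-04) at 72 h and -2.08 ± 0.13 (adjusted p = 5.4e-12) at 120 h.

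Of the other polymerase genes, Prim1, the catalytic subunit of primase, had 1.97 and 3.72 CPM at 120 h against 58.4 and 67.7 CPM at 0 h, a log2 change of -4.47 ± 0.24 (adjusted p = 5.48e-13). Its 2 libraries at 120 h differed more from each other, relative to their mean, than those of any other member and time. The log2 change at 120 h was -2.45 ± 0.11 for Prim2, the other primase subunit. For Pola1, the catalytic subunit of polymerase alpha, it was -3.79 ± 0.12. For Pold1, the catalytic subunit of polymerase delta, it was -2.86 ± 0.17, and for Pole2, an accessory subunit of polymerase epsilon, -3.44 ± 0.16.

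Single-strand binding and flap joining genes fell in 4 of 4 cases at 120 h, with a median log2 change of -2.95. Fen1, the nuclease that trims Okazaki fragment flaps, had 244 and 236 CPM at 0 h, 262 and 269.5 at 24 h, 196 and 209 at 72 h, and by 120 h 35.0 and 39.6. It was highest at 36 and 48 h, and lower in both 72 h libraries than in both 0 h libraries. Fen1 averaged 245, 241, 263, 289, 289 and 96.0 CPM at 4, 8, 12, 36, 48 and 96 h. For Fen1 the log2 change was 0.26 ± 0.10 (adjusted p = 0.0274) at 48 h and -2.66 ± 0.10 (adjusted p = 2.83e-15) at 120 h.

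Lig1, the ligase that seals Okazaki fragments, had 238 and 217 CPM at 0 h, 184 and 187 at 24 h, 219 and 210.0 at 72 h, and by 120 h 13.0 and 15.7. Its 24 h libraries were below those at 0 h, its 72 h libraries overlapped with them, and its 120 h libraries were far below. Lig1 averaged 209, 234, 225, 186, 202 and 104 CPM at 4, 8, 12, 36, 48 and 96 h. For Lig1 the log2 change was -0.31 ± 0.11 (adjusted p = 0.0412) at 24 h, -0.11 ± 0.11 (adjusted p = 0.4) at 72 h and -3.96 ± 0.13 (adjusted p = 1.94e-16) at 120 h; at 24 h its adjusted p was 0.272 without 1 of the 0 h libraries (A), and 0.157 and 0.168 without 1 or the other 24 h library (A, B).

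Rpa1, the largest subunit of the single-strand binding complex RPA, had 209.9 and 215 CPM at 0 h, 188 and 187 at 24 h, 179.8 and 189 at 72 h, and by 120 h 52.6 and 55.1. Up to 72 h its libraries spanned a narrow range, and at 120 h they were apart. Rpa1 averaged 188, 210.1, 215, 179.9, 188 and 98.5 CPM at 4, 8, 12, 36, 48 and 96 h. For Rpa1 the log2 change was -1.95 ± 0.09 (adjusted p = 4.06e-14) at 120 h, the smallest fall in this role, and that of Rpa2, its partner subunit, was -3.25 ± 0.11.

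The 4 genes of deoxynucleotide supply fell furthest as a role, with a median log2 change of -4.05 at 120 h. Rrm1, the large subunit of ribonucleotide reductase, had 629 and 651 CPM at 0 h, 636 and 618 at 24 h, 505 and 539 at 72 h, and by 120 h 44.2 and 52.1. The 0 h and 24 h libraries of Rrm1 overlapped, the 72 h pair was lower, and the 120 h pair was lowest by far. Rrm1 averaged 602, 584, 608, 571, 568 and 258 CPM at 4, 8, 12, 36, 48 and 96 h. For Rrm1 the log2 change was -0.31 ± 0.09 (adjusted p = 0.00504) at 72 h and -3.70 ± 0.10 (adjusted p = 2.46e-17) at 120 h.

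Rrm2, the small subunit whose level limits the enzyme in S phase, had 360.0 and 408 CPM at 0 h, 385 and 401 at 24 h, 356 and 378 at 72 h, and by 120 h 15.0 and 20.4. The libraries of Rrm2 at 24 h and at 72 h each overlapped with those at 0 h. Rrm2 averaged 268, 278, 317, 405, 431 and 171 CPM at 4, 8, 12, 36, 48 and 96 h. Its log2 change at 4 h was -0.49 ± 0.12 (adjusted p = 0.00754), with an adjusted p of 0.118 without 1 of the 0 h libraries (column letter B) and 0.107 without 1 of the 4 h libraries (A). At 120 h its log2 change was -4.42 ± 0.14 (adjusted p = 1.15e-16).

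Tk1, the thymidine kinase of S phase, had 55.8 and 52.5 CPM at 0 h, 65.8 and 76.2 at 24 h, 99.1 and 98.9 at 72 h, and by 120 h 4.42 and 6.24. Both libraries at 72 h were above all at 0 h and 24 h, and both at 120 h were below those of every earlier time. Tk1 averaged 39.3, 59.5, 68.5, 82.7, 94.9 and 48.2 CPM at 4, 8, 12, 36, 48 and 96 h. For Tk1 the log2 change was 0.85 ± 0.13 (adjusted p = 9.18e-06) at 72 h and -3.33 ± 0.16 (adjusted p = 6.3e-14) at 120 h, the smallest fall in this role. Between 96 and 120 h Tk1 changed by -3.15 ± 0.16. Tyms, thymidylate synthase, had a log2 change of -4.39 ± 0.12 at 120 h.

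Chromatin assembly and maintenance methylation genes fell in 4 of 4 cases at 120 h, with a median log2 change of -3.11. Dnmt1, the methyltransferase that copies DNA methylation onto the new strand, had 500.1 and 425 CPM at 0 h, 393 and 386 at 24 h, 422 and 399 at 72 h, and by 120 h 111 and 111. Its libraries at 0 h were themselves spread, the 72 h pair lay close below them, and the 120 h pair was apart. Dnmt1 averaged 413, 462, 436, 403, 419 and 274 CPM at 4, 8, 12, 36, 48 and 96 h. For Dnmt1 the log2 change was -0.19 ± 0.12 (adjusted p = 0.149) at 72 h and -2.03 ± 0.12 (adjusted p = 2.87e-12) at 120 h.

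Uhrf1, which reads hemimethylated DNA and recruits DNMT1, had 413 and 364 CPM at 0 h, 311 and 325 at 24 h, 246 and 246 at 72 h, and by 120 h 13.3 and 17.9. Uhrf1 stepped down at each of these times without overlap. Uhrf1 averaged 366, 387, 368, 312, 309.8 and 125 CPM at 4, 8, 12, 36, 48 and 96 h. For Uhrf1 the log2 change was -0.68 ± 0.13 (adjusted p = 8.77e-05) at 72 h and -4.61 ± 0.15 (adjusted p = 2.45e-16) at 120 h, much below that of its partner Dnmt1. For the CAF-1 subunits, which deposit histones behind the fork, the log2 change at 120 h was -3.37 ± 0.15 (Chaf1a) and -2.85 ± 0.14 (Chaf1b).

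E2f1 and E2f2 are the 2 E2F genes among the members and encode transcription factors that drive S phase genes. E2f1 fell least of the 44 members that fell and E2f2 rose. E2f3, an E2F gene outside the members whose value is given below, fell more than E2f1 at 120 h. E2f1 had 39.2 and 36.5 CPM at 0 h, 38.2 and 43.5 at 24 h, 51.0 and 45.1 at 72 h, and by 120 h 25.7 and 28.1. Both of its libraries at 120 h were below every other withdrawal library. E2f1 averaged 34.2, 40.5, 46.6, 44.0, 50.1 and 41.8 CPM at 4, 8, 12, 36, 48 and 96 h. For E2f1 the log2 change was 0.32 ± 0.13 (adjusted p = 0.035) at 72 h and -0.47 ± 0.13 (adjusted p = 0.00361) at 120 h. At 72 h its adjusted p was 0.0551 and 0.170 without 1 or the other 0 h library (A, B) and 0.228 without 1 of the 72 h libraries (A), and at 120 h it was 0.0554 without 1 of the 120 h libraries (A).

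E2f2 had 14.8 and 13.6 CPM at 0 h, 17.8 and 19.4 at 24 h, 112 and 86.2 at 72 h, and by 120 h 87.0 and 72.4. The libraries of E2f2 at 72 h and 120 h were all above those at 0 h and 24 h with a wide gap. E2f2 averaged 22.9, 23.0, 18.6, 23.7, 37.0 and 121 CPM at 4, 8, 12, 36, 48 and 96 h. For E2f2 the log2 change was 0.72 ± 0.14 (adjusted p = 0.00193) at 4 h, 1.37 ± 0.14 (adjusted p = 9.7e-08) at 48 h, 2.78 ± 0.15 (adjusted p = 1.23e-12) at 72 h and 2.52 ± 0.15 (adjusted p = 1.95e-12) at 120 h. Between 96 and 120 h E2f2 fell by 0.56 on the log2 scale (adjusted p = 0.0022, and 0.0503 without 1 of the 96 h libraries, B). The adjusted p of its 4 h change was 0.0521 without 1 of the 4 h libraries (A). E2f2 reached 850% of its 0 h level at 96 h and 562% at 120 h.

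**Figure D3:**
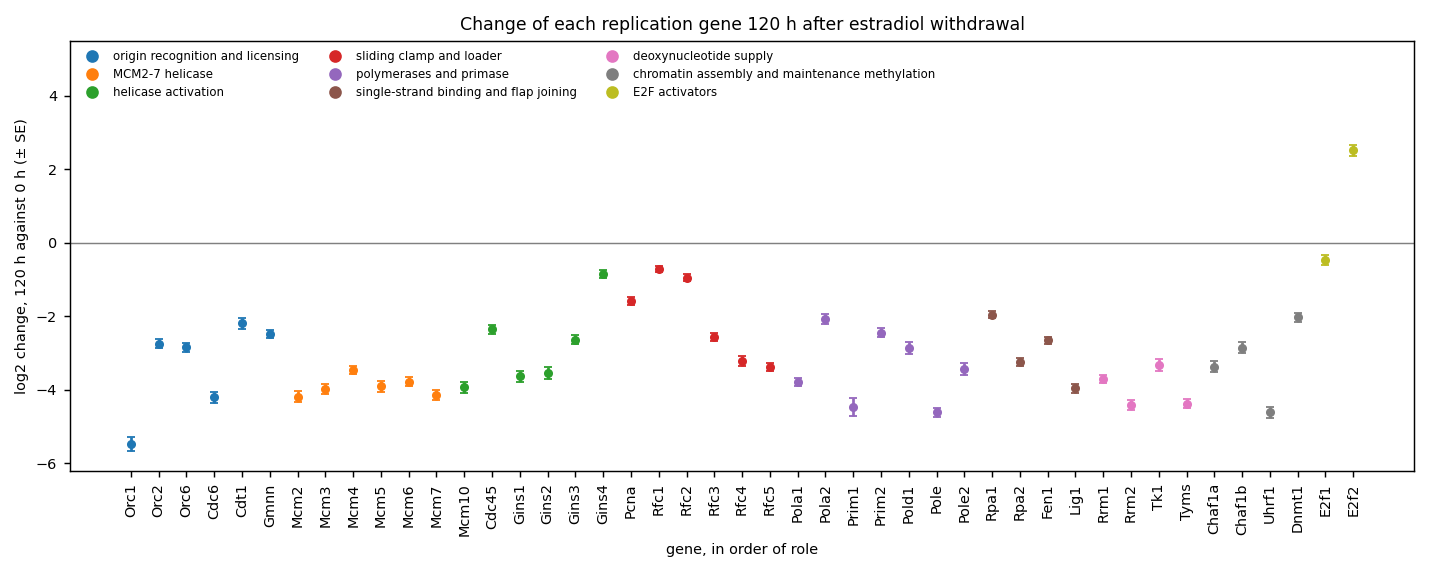
Log2 change at 120 h against 0 h for each member, grouped by role, with bars of 1 standard error from the edgeR fit. All points but E2f2 (2.52) are below 0, from -0.47 (E2f1) to -5.48 (Orc1).

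**Figure D4:**
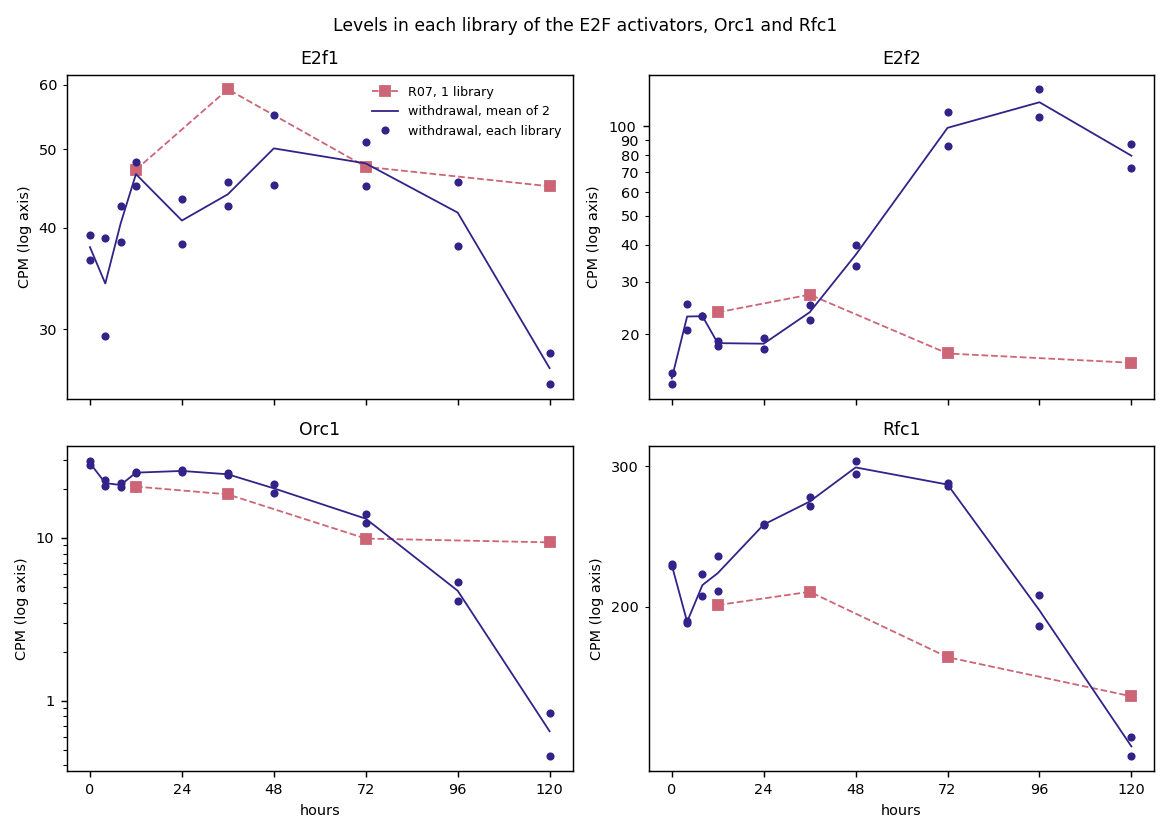
CPM of E2f1, E2f2, Orc1 and Rfc1 by hours, on log axes that differ between panels: squares are single R07 libraries, dots the withdrawal libraries and the solid line their mean. At 120 h both withdrawal dots of E2f1, Orc1 and Rfc1 are below the R07 square, and both of E2f2 above it.

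Other genes of the pathway, taken from lists that held none of the members, mostly fell too at 120 h. Of 48 further replication genes, 42 fell and 5 rose, with a median log2 change of -1.83; Dck, deoxycytidine kinase, was not called. The lowest were Exo1, an exonuclease of mismatch repair and DNA end resection, at -5.16 ± 0.16, Dut, the dUTPase, at -4.76 ± 0.16, Recql4, a RecQ family helicase, at -4.62 ± 0.21 and Chtf18, part of an alternative clamp loader, at -4.34 ± 0.21. Among the genes that rose were Samhd1, an enzyme that degrades deoxynucleotides, at 4.84 ± 0.17, Pold4, the smallest subunit of polymerase delta, at 1.92 ± 0.14, and Rrm2b, the alternative small subunit of ribonucleotide reductase, at 0.66 ± 0.14; Tonsl also rose, at 0.49 ± 0.11, and was named after its value was seen. Samhd1 had 1679 and 1312 CPM at 120 h against 53.2 and 53.2 CPM at 0 h, opposite in direction to the deoxynucleotide synthesis genes Rrm1, Rrm2, Tk1 and Tyms. At 72 h 10 of the 48 were higher and 23 lower than at 0 h, where 34.9% of all genes tested were higher and 34.7% lower.

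Of 18 E2F, pocket protein and S phase entry genes, 16 fell and 2 rose at 120 h, with a median log2 change of -1.87. The lowest were the cyclins Ccne2 (-4.27 ± 0.19) and Ccna2 (-3.72 ± 0.13), the anaphase-promoting complex inhibitor Fbxo5 (-3.42 ± 0.14) and the cyclin Ccne1 (-3.40 ± 0.14). The highest were the retinoblastoma genes Rb1 (1.60 ± 0.13) and Rbl2 (0.34 ± 0.09), which rose, followed by E2f3 (-0.83 ± 0.10) and Cdk2 (-0.87 ± 0.09), which fell. All 15 G2 and mitosis genes fell, with a median of -3.29. At 72 h, by contrast, their summed level was 3744 to 3757 CPM against 3526 to 3621 CPM at 0 h, with 3 higher and 1 lower (34.9% and 34.7% of all genes), and the replication genes' median log2 change was -0.23 at that time.

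At 120 h the R07 library held far higher levels of most replication genes than the withdrawal libraries did, while up to 72 h the arms lay closer. The R07 library at 120 h was above both withdrawal libraries of the same time for 44 members and below both for E2f2 (51.7% and 43.3% of all genes tested), with a median log2 ratio of 2.57 and a range of -2.32 (E2f2) to 4.21 (Prim1). At 12 h 27 members were above and 12 below (39.3% and 41.6%, median 0.14), at 36 h 13 above and 30 below (44.5% and 46.4%, median -0.18), and at 72 h 6 above and 38 below (44.6% and 46%, median -0.54). The 6 above at 72 h were Orc2, Rfc2, Pola2, Pole, Rpa2 and Chaf1b. With 1 library a time these sides have no replicate check.

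Set beside the start of the course, R07 members stood at a median of 110% of the 0 h mean at 12 h, 87.3% at 36 h, 60.8% at 72 h and 64.8% at 120 h. The R07 library at 120 h was above both 0 h libraries for 5 members (Cdt1, Rfc2, Rfc5, E2f1 and E2f2) and below both for 40 (45.8% and 43.1% of all genes). At 72 h it was above for 3 (Rfc2, E2f1, E2f2) and below for 42 (47.3% and 42%), at 36 h above for 9 and below for 33 (47.6% and 40.9%), and at 12 h above for 26 and below for 14 (43% and 40.3%). Summed markers of mature neutrophils were 4.44 to 19.4 CPM in the R07 libraries, and those of myeloid progenitors were 8255 to 14358 CPM. Other marker sums also differed between the arms, though each rested on few genes of its list. At 72 h B cell markers summed to 224 CPM in R07 against 49.1 to 49.7 CPM in withdrawal. Megakaryocyte markers summed to 125 CPM against 26.0 to 28.9 CPM, and fibroblast and stromal markers to 44.95 CPM against 5.05 to 5.37 CPM. At 120 h the B cell sum was 217 CPM in R07 against 81.2 to 86.9 CPM in withdrawal. The megakaryocyte sum was 70.5 CPM against 30.03 to 33.3 CPM, and the stromal sum 46.5 CPM against 9.93 to 11.1 CPM. Highest levels in any library were 177 CPM for Ebf1, 82.9 for Cd79b, 107 for Itga2b and 46.4 for Pdgfrb. By contrast Ms4a1, Gp1bb and Pdgfra never passed 0.126, 0.0241 and 0.123 CPM, so the sums do not show whole lists moving together. What part the differences in marker sums had in the values of the replication genes was not tested.

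Over the 4 times together no member was called between R07 and withdrawal (10.5% of 13641 genes were called higher and 6.09% lower), and the members' median log2 difference was 0.64. At an unadjusted p under 0.05 edgeR gave 5 members higher and none lower, and DESeq2 called 2 higher, Pole and Rfc5 (14.5% of all genes higher, 9.42% lower). Because times were fitted as blocks, the change of the difference between 72 and 120 h entered the spread; with all 24 libraries fitted by group, which lets each R07 library borrow the spread of the withdrawal pairs, 41 members were called higher and 2 lower, beside 34.4% and 28.8% of all genes in that fit. Without the 120 h libraries 1 member was called lower (5.3% of all genes). Against 0 h no member and none of 13704 genes was called by edgeR (0% background), with 2868 genes and 8 members, all 8 lower, at an unadjusted p under 0.05, and 1221 genes and 1 member called by DESeq2. Without the R07 library at 12 h, edgeR called 10 members lower than at 0 h (6.53% of all genes). The members' median log2 difference from 0 h was -0.35, and by group over 24 libraries 4 were higher and 32 lower, beside 24.9% and 20.2% of all genes in that fit.

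For the licensing genes, Orc1 had 20.7, 18.5, 9.90 and 9.38 CPM in R07 at 12, 36, 72 and 120 h, against withdrawal means of 25.2, 24.6, 13.1 and 0.648 CPM. Orc2 had 121, 92.5, 108 and 135 CPM in R07, against 163, 135, 60.4 and 25.1 CPM in withdrawal, and Cdt1 had 77.8, 67.0, 62.2 and 83.5 CPM, against 84.0, 85.5, 80.3 and 16.5 CPM. In R07 Orc1 was lower at 72 and 120 h than at 12 and 36 h, while Orc2 and Cdt1 were higher at 120 h than at 12 h. In the helicase and its activators, Mcm7 had 684, 502, 393 and 469 CPM in R07, against 652, 598, 495 and 39.4 CPM. Mcm2 had 345, 274, 204 and 257 CPM, against 385, 306, 247 and 21.0 CPM, and Mcm4 412, 299, 186 and 191 CPM, against 393, 340.1, 312 and 36.2 CPM. All 3 were lowest at 72 h in R07 and a little higher at 120 h. Mcm10 had 84.4, 78.1, 69.9 and 68.2 CPM in R07, against 95.1, 102, 81.7 and 7.22 CPM, and Gins4 53.7, 42.7, 32.0 and 32.7 CPM, against 45.1, 54.9, 54.3 and 25.0 CPM. The R07 library of Gins4 at 120 h was above both withdrawal libraries, by less than that of Mcm10.

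For the clamp and loader, Pcna had 541, 365, 299.7 and 362 CPM in R07 at the same 4 times, against 418, 432, 446 and 151 CPM in withdrawal. Rfc1 had 201, 209, 173 and 154 CPM, against 220.3, 271, 285 and 134 CPM, and Rfc5 had 155, 149.8, 87.3 and 99.7 CPM, against 100.3, 120.2, 93.0 and 9.10 CPM. Rfc5 in R07 was above withdrawal at 12, 36 and 120 h and Rfc1 only at 120 h. Pole had 241, 221, 129.6 and 110.1 CPM in R07, against 197, 147, 118 and 8.53 CPM, and Pola2 125, 122, 82.2 and 87.4 CPM, against 102, 100.2, 78.2 and 26.8 CPM. Both stayed at or above the withdrawal mean at every time. Fen1 had 277, 226, 137 and 137 CPM, against 263, 289, 202 and 37.3 CPM, Lig1 277, 178, 94.8 and 89.1 CPM, against 225, 186, 214 and 14.4 CPM, and Rpa1 259.9, 206, 125 and 114 CPM, against 215, 179.9, 184 and 53.9 CPM. These 3 were highest in R07 at 12 h and closer between 72 and 120 h than between 12 and 36 h.

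In deoxynucleotide supply, Rrm1 had 725, 567, 359 and 322 CPM in R07, against 608, 571, 522 and 48.1 CPM in withdrawal. Rrm2 had 424, 254, 207 and 193 CPM, against 317, 405, 367 and 17.7 CPM, and Tk1 84.9, 72.3, 50.0 and 51.1 CPM, against 68.5, 82.7, 99.0 and 5.33 CPM. Each was below withdrawal at 72 h and above it at 120 h in R07. Dnmt1 had 417, 421, 277 and 238 CPM in R07, against 436, 403, 410.5 and 111 CPM, and Uhrf1 405, 339, 208 and 206 CPM, against 368, 312, 246 and 15.6 CPM. E2f1 had 47.2, 59.3, 47.6 and 45.01 CPM, against 46.6, 44.0, 48.0 and 26.9 CPM, and E2f2 23.7, 27.2, 17.2 and 16.0 CPM, against 18.6, 23.7, 98.9 and 79.7 CPM. The E2f2 level in every R07 library was under that of every withdrawal library at 48 h and later.

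**Figure D5:**
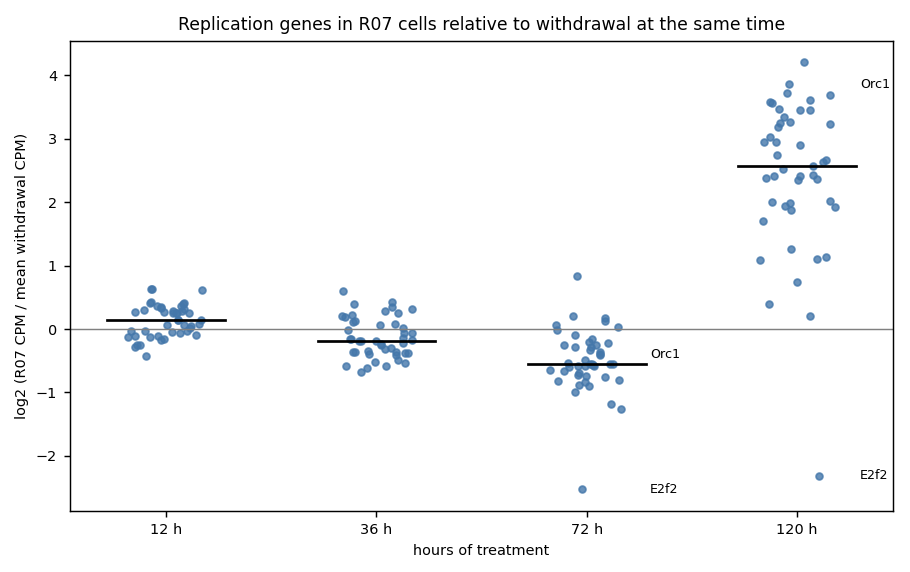
Log2 ratio of each R07 library to the withdrawal mean of the same time, 1 point per member, by hours, with black bars at the median. The points scatter around 0 at 12 and 36 h, lie mostly below 0 at 72 h (median -0.54) and above 0 at 120 h (median 2.57), with E2f2 at -2.32.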

How the data were processed

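Polyadenylated RNA was sequenced as paired ends from stranded libraries, per the labels' protocols. The deposited values are raw read counts per gene, 1 column for each of 24 libraries; no column was left out (0 columns matched no sample). STAR 2.4.2a, Picard and build mm10 are named in the submitters' processing notes, with no role given; the counting tool and its strand setting are not given in the sources used here. Rows that name no gene entered neither the library sizes nor any test: multimapping 6.23 to 8.72%, no feature 3.88 to 6.48%, unmapped 1.53 to 2.29% and ambiguous 1.08 to 1.25% of reads. Each library had between 36661334 and 49601719 gene-assigned counts; counting error weighs most on members with few counts, such as Orc1 with 17 and 25 counts in the 120 h withdrawal libraries.

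Symbols, exon lengths and overlaps came from GENCODE vM21. CPM used TMM-scaled library sizes over 24 libraries, and per-kilobase levels used the union of a gene's exons. Tests were edgeR 4.0.16 quasi-likelihood fits (R 4.3.3, limma 3.58.1) after filterByExpr, with Benjamini-Hochberg adjustment over all genes tested and a threshold of 0.05. One fit held the 20 withdrawal libraries, each time being a level. A fit of R07 beside the 8 withdrawal libraries from its 4 times had an arm term and times as blocks, and a further fit set the 4 R07 libraries, as 1 arm, against 0 h. Tests were run on simulated counts with known changes, with a single fixed spread and, for R07, the same change at every time. An R07 difference that varies with time, as in these data, was not simulated. Tables were described in Python 3.11.15 (pandas 2.3.3, numpy 2.4.6). DESeq2 1.42.0, another scaling, no filter, a replicate block, fits of fewer or of all libraries and leaving out each library were the alternatives. Whether column letters pair libraries is not stated. Deviations of same-letter libraries correlated at a median of 0.0139 over 45 pairs of times (range -0.156 to 0.214, 7 over 0.1). This does not settle whether the letters mark shared cultures.

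Members and lists were chosen with earlier results of these data known. Levels in every library are given for, in each role, the member highest at 0 h and those with the lowest and highest log2 change at 120 h, for members opposed to the rest, and for E2f1 and E2f2; of the other lists, the 4 lowest and 4 highest changes at 120 h are named, except where a gene is not reported here.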

Additional observations from a re-analysis of the deposited data

Results flagged for a closer look

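For 3 members the level at 120 h lay on opposite sides of that at 12 h in R07 and in withdrawal. Each R07 value is a single library, and the difference between the arms was not tested. Orc2, a core subunit of the origin recognition complex, had a log2 ratio of 120 h over 12 h of 0.15 in R07 (135 over 121 CPM), against -2.69 in withdrawal (25.1 over 163 CPM, means of 2 libraries). Cdt1, the licensing factor, had 0.10 in R07 (83.5 over 77.8 CPM), against -2.35 in withdrawal (16.5 over 84.0 CPM). E2f2 went the other way, with -0.56 in R07 (16.0 over 23.7 CPM), against 2.10 in withdrawal (79.7 over 18.6 CPM). For Orc2 and Cdt1 the R07 rise was smaller than the difference between their 2 libraries at 0 h. Between these times R07 was lower, at 92.5 CPM for Orc2 at 36 h and 62.2 CPM for Cdt1 at 72 h. A rise of Orc2 or Cdt1 in R07 is therefore not shown.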

How the results depend on the processing

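Counts of members called at 96 and 120 h against 0 h, and in both late steps, kept their direction under every alternative run. Counts up to 48 h moved under some of them. At 96 h against 0 h the main fit called 1 member higher and 41 lower, beside 38.7% and 38.6% of all genes tested. Without 1 library (a time left with 1 library was assumed to vary like the others; an R07 library was left out with its time), the counts ranged, higher and lower, from 0 to 1 and 0 to 4 at 4 h, 1 to 1 and 1 to 4 at 8 h, 0 to 1 and 0 to 0 at 12 h, 0 to 1 and 1 to 4 at 24 h, 3 to 6 and 3 to 6 at 36 h, 5 to 8 and 6 to 11 at 48 h, 4 to 6 and 17 to 24 at 72 h, 1 to 1 and 39 to 42 at 96 h, and 1 to 1 and 43 to 44 at 120 h. For the steps they were 0 to 0 and 0 to 1 (24 against 12 h), 1 to 4 and 1 to 3 (48 against 24 h), 1 to 1 and 5 to 9 (72 against 48 h), 0 to 1 and 43 to 43 (96 against 72 h), and 0 to 0 and 43 to 44 (120 against 96 h). For R07 they were 0 to 0 and 0 to 1 against withdrawal, and 0 to 0 and 0 to 10 against 0 h. DESeq2 gave 10 lower at 8 h, 1 higher at 12 h, 4 lower for 24 against 12 h, 1 higher for 96 against 72 h, 2 higher for R07 against withdrawal and 1 lower for R07 against 0 h. With no filter 2 were higher at 12 h and 1 for 96 against 72 h, which the other scaling (RLE) also gave as 1. A fit of only the 4 libraries compared gave 10 lower at 24 h. With 72 and 120 h only, R07 against withdrawal gave 1 higher and 1 lower, and with all 24 libraries by group 41 and 2, and 4 and 32 against 0 h. With 25% in place of 50% of the 0 h level, 3 members first went under at 96 h and 35 at 120 h. The replicate block on column letters moved no count by over 1.5 times; Pola1 at 4 h became -0.31 with an adjusted p of 0.0505. Signs turned without 1 library for log2 changes not called: at 72 h against 0 h Pcna ran from -0.16 to 0.0226, Cdt1 from -0.0270 to 0.13 and Rrm2 from -0.17 to 0.0039, and Orc1 in R07 against withdrawal ran from -0.37 (without 120 h) to 1.28 (without 72 h). The causes were not tested. Of 662 single-gene values without a library, 604 kept direction and side of the threshold.

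Limits: 2 libraries a time, 1 library for each R07 time, and unstated separateness of cultures bound what these tests show. Members with low counts at 120 h, such as Orc1 at 0.458 and 0.839 CPM, rest on few counts.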

Other observations

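At 120 h of withdrawal Rrm1, Rrm2, Tk1 and Tyms were lower than at 0 h and Samhd1, which lowers deoxynucleotide pools, was higher. In withdrawal it had 53.2 and 53.2 CPM at 0 h, 189 and 145 at 72 h, and by 120 h 1679 and 1312, whereas in the R07 libraries it had 70.2, 112, 72.5 and 43.9 CPM at 12, 36, 72 and 120 h. At 72 h of withdrawal Tk1 too was higher than at 0 h. In R07 Samhd1, Rrm1, Rrm2, Tk1 and Tyms were each lower at 120 h than at 12 h. Among the synthesis genes, Tyms, thymidylate synthase, had 7.76 and 9.39 CPM at 120 h of withdrawal against 176 and 189 CPM at 0 h. Rrm2b, the alternative small subunit of ribonucleotide reductase, had 24.2, 16.7, 30.2 and 65.6 CPM in R07 and a withdrawal mean of 30.1 ± 3.0002 CPM at 120 h against 19.5 ± 0.291 CPM at 0 h (SD, n = 2 each).

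Pold4, the smallest polymerase delta subunit, had 30.2, 38.7, 72.2 and 81.2 CPM in R07 at 12, 36, 72 and 120 h, and in withdrawal 97.9 and 91.4 CPM at 120 h against 26.8 and 24.2 CPM at 0 h, while Pold1, the catalytic subunit, had 17.8 and 18.2 CPM at 120 h against 149.7 and 117 CPM at 0 h. These R07 levels are single libraries with no test at a time.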
